A study of Homo sapiens with 12 samples.

Results

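The MYC, MAX and MondoA network was followed through 10 of its genes in DLD1 cells, an established human colorectal adenocarcinoma line, after 1 h with ligands of the aryl hydrocarbon receptor (AHR). The 10 were taken by symbol from the 26485 gene symbols counted in every library: MYC, MAX, MXD1, MXD3, MXD4, MXI1, MNT, MLX, TXNIP and ARRDC4. All 10 were found and all 10 were among the 13619 genes with enough reads to be tested. Poly(A) RNA was sequenced from 4 groups of 3 libraries. The groups were TCDD, a dioxin and strong AHR agonist, at 10 µM, Kyn, the tryptophan metabolite kynurenine and an endogenous AHR agonist, at 10 µM, CH, the synthetic AHR antagonist CH223191, at 10 µM, and DMSO, the vehicle. Each compound was used at 1 dose and 1 time in 1 cell line. Nothing in the labels ties the 3 libraries of a group to separate cultures, so p-values measure the spread between these libraries, which may be technical.

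MYC is a basic helix-loop-helix leucine zipper factor that drives ribosome production and growth genes, and it binds DNA only as a partner of MAX. The MXD proteins, MXI1 and MNT also pair with MAX, occupy the same CACGTG sites (E-boxes) and recruit SIN3 corepressors, so they oppose MYC. In the other arm, MLX pairs with MondoA (gene MLXIP), which senses glucose phosphates and switches on TXNIP and ARRDC4, alpha-arrestins that lower glucose uptake. In colon cancer MYC is a main output of Wnt signalling. AHR, once bound by ligand, pairs with ARNT and binds sites with the core GCGTG.

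The promoters of both MondoA targets are shown because the largest differences within this arm concern ARRDC4, and because both promoters are known from earlier work to carry MondoA and MLX sites. Each line holds the 250 bases before the start, 5′ to 3′ on the gene's strand, from RefSeq on GRCh38.p14. Capitals mark matches, on either strand, to the E-box CACGTG, to the AHR core GCGTG, or to paired E-box-like sites (CACGNG and CNCGNG, 5 bases apart). RefSeq lists a pair of windows for TXNIP, and the other, chr1:145995745-145995994, held none of these motifs. The TXNIP window printed is chr1:145996580-145996829 on the minus strand and the ARRDC4 window is chr15:97960453-97960702 on the plus strand.
TXNIP: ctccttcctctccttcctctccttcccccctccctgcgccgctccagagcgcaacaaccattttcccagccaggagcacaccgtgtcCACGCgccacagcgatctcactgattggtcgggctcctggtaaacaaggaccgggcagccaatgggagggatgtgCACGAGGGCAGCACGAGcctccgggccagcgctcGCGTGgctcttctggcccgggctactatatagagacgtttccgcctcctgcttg
ARRDC4: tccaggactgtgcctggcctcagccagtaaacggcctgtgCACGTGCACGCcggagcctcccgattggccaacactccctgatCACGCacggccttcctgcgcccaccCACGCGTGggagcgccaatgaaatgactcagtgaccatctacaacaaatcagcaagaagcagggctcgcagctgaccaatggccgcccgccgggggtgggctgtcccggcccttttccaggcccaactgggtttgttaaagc

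The paired sites of TXNIP lie 88 to 72 bases before the start, and AHR cores lie at 163 to 159 and at 54 to 50. ARRDC4 has 1 E-box, 210 to 205 bases before the start, directly followed by an AHR core at 204 to 200. Its other cores lie at 167 to 163, 142 to 138 and 139 to 135, and the last pair overlap each other. Of 35116 RefSeq windows of 250 bases, 6.34% held the E-box, 32.2% the AHR core and 0.424% the paired sites. Windows were found for 9 of the 10 genes, 13 windows in all, with none for MYC. The shares above count windows, whereas the members are counted by gene, some with several windows, so the counts are not compared with the shares. E-boxes were found in 4 of those 9 genes, each with 1 window. The 3 besides ARRDC4 belong to a repressor pair and to the MondoA partner, and are shown with the E-box in capitals and 12 bases on each side, because it is the site for which MYC and its antagonists compete.
MXD4: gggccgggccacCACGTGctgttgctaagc
MNT: ccctgcccgggcCACGTGtgcgcgcgccgg
MLX: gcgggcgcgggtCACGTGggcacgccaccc

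These sites lie at chr4:2262330-2262359 on the minus strand (E-box 238 to 233 bases before the start), chr17:2401236-2401265 on the minus strand (193 to 188) and chr17:42567038-42567067 on the plus strand (50 to 45). The paired sites were also found in 1 of the 3 MXI1 windows. AHR cores were found in the windows of MXD3, MXI1, MLX, TXNIP and ARRDC4. A match describes the letters of the window and shows no binding.

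Libraries held 21397703 to 28247146 counted reads. CYP1A1, the classical AHR target, averaged 428 ± 15.9 CPM (reads scaled to the library's total) with TCDD, 10.2 ± 1.01 with Kyn, 0.52 ± 0.188 with CH and 3.22 ± 0.142 in DMSO (SD, n = 3 each). Of 7 AHR targets, 7 were higher and 0 lower with TCDD than in DMSO, 4 higher and 2 lower with Kyn, and 1 higher and 5 lower with CH. Of all genes tested, 11.7% were called with TCDD, 0.294% with Kyn and 32.8% with CH. Of the 6 calls with Kyn, 4 held without any 1 library, 3 higher and 1 lower. The 2 lower with Kyn were CYP1B1 (-0.37, adjusted p = 2.44e-07) and TIPARP (-0.21, adjusted p = 0.0271, lost without any 1 DMSO library or Kyn replicates 1 or 2), and the gene higher with CH was NQO1 (0.29, adjusted p = 1.31e-08). Epithelial markers summed to 8350 to 8530 CPM with TCDD, 9060 to 9330 with Kyn, 8780 to 9000 with CH and 8590 to 9070 in DMSO. All 8 were detected, and 1 of them was higher and 2 lower with TCDD than in DMSO by the test used below. The fibroblast list (6 genes) summed to at most 1.26 CPM, the endothelial list (5 genes) to at most 1.69 and the immune list (6 genes) to at most 16.2, with DCN and KDR at 0 in all libraries. Reads aligned to more than 1 place made up 3.27 to 3.91% with TCDD, 2.88 to 3.07% with Kyn, 2.66 to 3.02% with CH and 2.63 to 3.07% in DMSO. The part of these differences in the results was not tested. Kyn replicate 1 stood apart from its group. Counts of pairs that include it varied 4.5 and 4.55 times as much as Poisson noise, against 1.74 times for the other Kyn pair. DMSO replicate 1 did so less, with 3.87 and 3.10 times for its pairs against 2.54 times for the other DMSO pair. Calls that rest on the Kyn group are therefore also given without Kyn replicate 1. Fits without DMSO replicate 1 are among the alternatives below.

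Per kilobase of transcript, MYC was the most abundant gene of the network. Averaged over the 12 libraries, its level was 44.5 CPM per kb, followed by TXNIP with 24.9, MLX with 22.9 and MAX with 20.3. MXD3 was the highest of the antagonists with 10.2 CPM per kb, then MXD4 with 6.44, and the MondoA target ARRDC4 stood beside MXD4 with 6.41. The rank of MXD3 rests on its transcript length of 1067 bases, the shortest of the 10. Exons of MXD3 also overlap those of PRELID1 and RAB24, so its level is less certain. Reads set aside in counting as ambiguous between genes made up 2.47 to 2.56% per library. Whether MXD3 lost reads in this way was not tested. MNT (3.61), MXD1 (3.49) and MXI1 (3.28) were lowest, and their order changed between groups. In DMSO the neighbours TXNIP (24.1 ± 0.579) and MLX (23.2 ± 0.666), and likewise MXD4 (6.10 ± 0.222) and ARRDC4 (6.37 ± 0.224), differed by less than 2 SD. These are levels per kb. All other values are CPM, in which genes of different length are not compared.

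**Figure D1:**
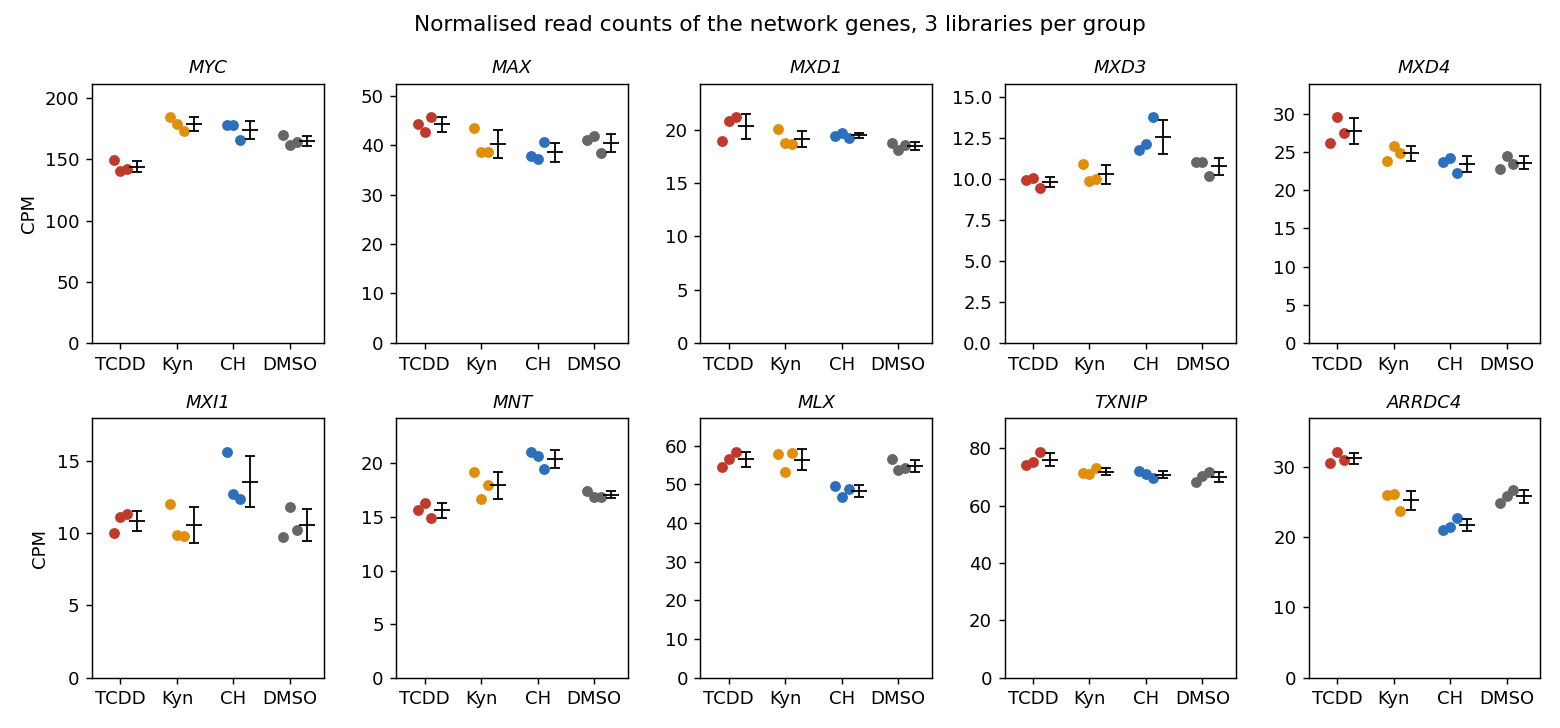
CPM (vertical axes, from 0) of the 10 network genes in each of the 3 libraries of the TCDD, Kyn, CH and DMSO groups, left to right, with the group mean and SD as a bar beside the points. The MYC libraries with TCDD (140.7 to 149.1 CPM) lie below all others, and the ARRDC4 libraries lie highest with TCDD (30.6 to 32.1) and lowest with CH (21.0 to 22.7).

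MYC RNA was lower after 1 h with TCDD than in any other group. It measured 149.1, 140.7 and 142.2 CPM with TCDD, 184.2, 179.1 and 172.9 with Kyn, 178.3, 178.3 and 165.8 with CH, and 169.6, 161.5 and 163.9 in DMSO. No TCDD library reached the lowest library of any other group. Over all genes tested, libraries did not overlap for 27.8% of genes with TCDD against DMSO, 11.4% with Kyn and 43.4% with CH. The share was 26% for TCDD against Kyn, 47.3% for TCDD against CH and 43.5% for Kyn against CH. Separation of libraries, here and below, is therefore a description and is not read as particular to these genes. MYC averaged 144 ± 4.47 CPM with TCDD and 165 ± 4.17 in DMSO (SD, n = 3 each), a log2 fold change of -0.20 ± 0.0374 (SE), or 12.7% less. This passed edgeR's quasi-likelihood test with Benjamini-Hochberg adjustment over all genes (adjusted p = 0.000414), the test behind every call and adjusted p below, with an adjusted p under 0.05 as the threshold. In RNA of whole cultures, fewer expressing cells and less RNA per cell cannot be told apart.

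The difference in MYC was larger against Kyn, at -0.31 ± 0.0373 (adjusted p = 1.59e-07), and -0.27 ± 0.0374 against CH (adjusted p = 3.09e-07). All 3 differences with TCDD kept their call in each of 20 alternative analyses, between -0.22 and -0.18 against DMSO. Without Kyn replicate 1 the difference from Kyn was -0.29 (adjusted p = 1.47e-07). With Kyn, MYC averaged 179 ± 5.62 CPM and all 3 libraries lay above all DMSO libraries. That difference, 0.12 ± 0.0367 or 8.36%, did not pass adjustment (unadjusted p = 0.00332, adjusted p = 0.307). Its 95% interval ran between 0.04 and 0.19, and without Kyn replicate 1 the value was 0.10 (adjusted p = 0.528). With CH, MYC averaged 174 ± 7.21 CPM, 0.08 ± 0.0368 above DMSO (adjusted p = 0.0986), with overlapping libraries. It passed in 4 of 20 alternatives, at 0.08 to 0.11.

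MAX, the shared partner of MYC and its antagonists, passed the test only for TCDD against CH, apart from the alternatives given below. It measured 44.3, 42.7 and 45.6 CPM with TCDD, 43.5, 38.5 and 38.5 with Kyn, 37.8, 37.2 and 40.7 with CH, and 40.9, 41.9 and 38.3 in DMSO. All TCDD libraries lay above those of CH and DMSO. The difference from CH passed the test (0.20 ± 0.0529, adjusted p = 0.00291), and that from DMSO did not (0.13 ± 0.0523, adjusted p = 0.106, 95% interval 0.02 to 0.24). Against Kyn it was 0.13 ± 0.0524 (adjusted p = 0.105), and 0.20 without Kyn replicate 1, which passed (adjusted p = 0.0203), as did 0.15 with GC and length trends removed (adjusted p = 0.0481). MAX overlaps FNTB on the other strand, whose group means were at most 0.703 CPM.

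**Figure D2:**
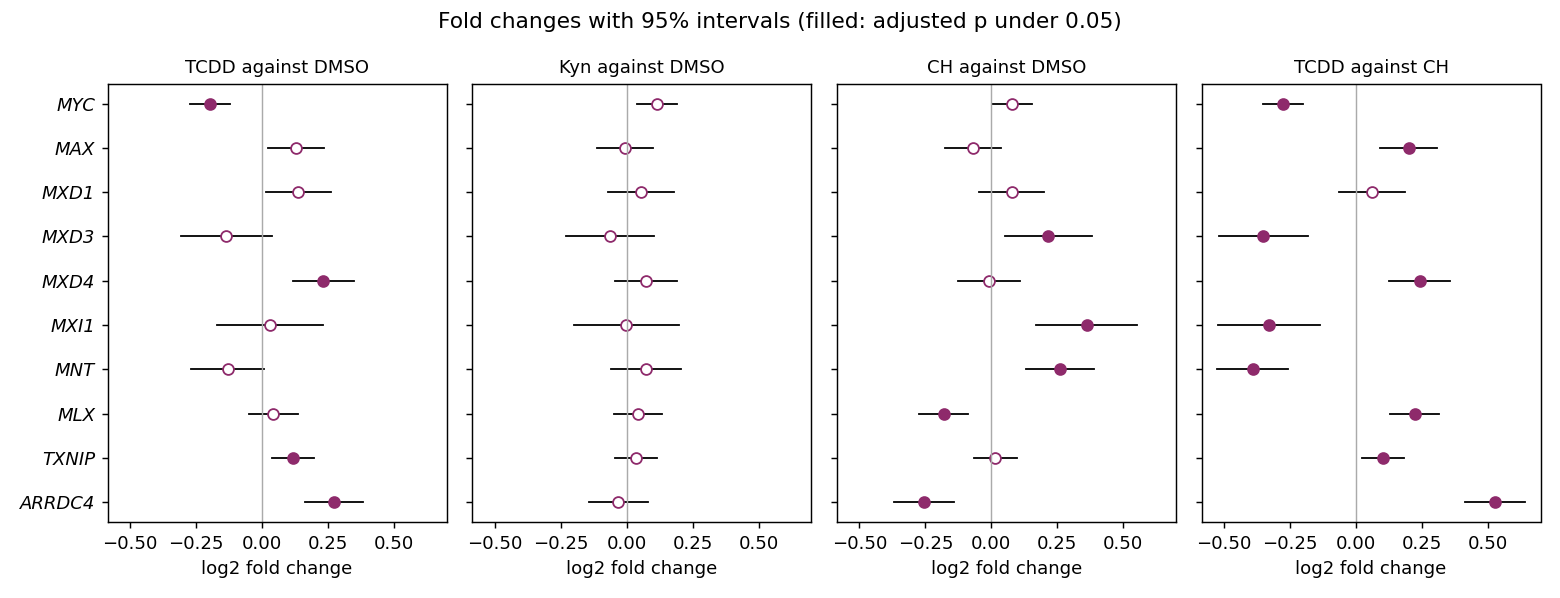
Log2 fold changes (horizontal axes) of the 10 genes for TCDD, Kyn and CH, each against DMSO, and for TCDD against CH, with 95% intervals as lines and filled circles where the adjusted p was under 0.05. With TCDD 4 circles are filled, with Kyn 0, with CH 5, and between TCDD and CH 9, where MXD1 is the open circle.

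Among the antagonists, TCDD raised MXD4. The gene encodes a MAX partner found in differentiating cells. MXD4 measured 26.3, 29.6 and 27.5 CPM with TCDD, 23.8, 25.8 and 24.9 with Kyn, 23.8, 24.3 and 22.3 with CH, and 22.8, 24.5 and 23.5 in DMSO. The TCDD libraries lay above all others. The difference from DMSO was 0.23 ± 0.0573, or 17.5% (adjusted p = 0.00559), and that from CH was 0.24 ± 0.0577 (adjusted p = 0.00114). Both kept their call in 20 of 20 alternatives, with a highest adjusted p of 0.0476 against DMSO. Against Kyn the difference was 0.16 ± 0.057 (adjusted p = 0.0718), and 0.13 without Kyn replicate 1 (adjusted p = 0.293). With GC and length trends removed it was 0.22 and passed (adjusted p = 0.00665).

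CH raised another set of antagonists. MNT, a widely expressed antagonist with a dominant part in resting cells, measured 15.6, 16.3 and 14.9 CPM with TCDD, 19.2, 16.7 and 18.0 with Kyn, 21.1, 20.7 and 19.5 with CH, and 17.5, 16.9 and 16.9 in DMSO. The CH libraries lay above all others and the TCDD libraries below all others. CH against DMSO gave 0.26 ± 0.0643, or 19.8% (adjusted p = 0.00177), and TCDD against CH gave -0.39 ± 0.0664 (adjusted p = 1.37e-05), and both passed in 20 of 20 alternatives. TCDD against DMSO gave -0.13 ± 0.0677 (adjusted p = 0.23, 95% interval -0.27 to 0.01).

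MXI1, a MAX partner that antagonises MYC, measured 10.0, 11.1 and 11.3 CPM with TCDD, 12.01, 9.83 and 9.82 with Kyn, 15.6, 12.7 and 12.3 with CH, and 9.73, 11.8 and 10.2 in DMSO. The CH libraries lay above all others, with replicate 1 well above the other CH libraries. The difference of CH from DMSO was 0.36 ± 0.094, or 28.4% (adjusted p = 0.003), and without CH replicate 1 it was 0.24 and lost its call (adjusted p = 0.0712). The differences of TCDD from CH (-0.33 ± 0.0956, adjusted p = 0.00629) and of Kyn from CH (-0.36 ± 0.0943, adjusted p = 0.00293) rested on the same library, with values of -0.21 (adjusted p = 0.112) and -0.24 (adjusted p = 0.0703) without it. Without Kyn replicate 1 the difference of Kyn from CH was -0.47 (adjusted p = 0.000226).

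MXD3, the antagonist linked to S phase, measured 9.93, 10.0 and 9.45 CPM with TCDD, 10.9, 9.91 and 10.0 with Kyn, 11.8, 12.1 and 13.8 with CH, and 11.1, 11.1 and 10.2 in DMSO. Here too the CH libraries lay above all others. CH against DMSO gave 0.22 ± 0.0804 (adjusted p = 0.0361), a call that ended without CH replicate 3 (0.15, adjusted p = 0.196), without DMSO replicate 3 (0.18, adjusted p = 0.143), with no filter on low counts and by DESeq2. TCDD against CH gave -0.35 ± 0.0832 (adjusted p = 0.00101) and kept its call in 20 of 20 alternatives. The exons of MXD3 overlap those of PRELID1 on the other strand, which was lower with TCDD than in DMSO (-0.22) and lower with CH (-0.20). They also overlap RAB24 on the same strand (group means of at most 3.91 CPM). Whether counting used strand is not given in the sources used here, and the part of these genes in the MXD3 counts was not tested.

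MXD1, the founding antagonist of the family, passed in 0 of the 6 comparisons by edgeR and 0 by DESeq2, with 1 at an unadjusted p under 0.05 (TCDD against DMSO). It averaged 20.3 ± 1.19 CPM with TCDD, 19.2 ± 0.776 with Kyn, 19.5 ± 0.254 with CH and 18.5 ± 0.345 in DMSO. The TCDD and the CH libraries lay above all DMSO libraries, and the 95% interval of TCDD against DMSO was 0.01 to 0.26. Its exons overlap those of SNRNP27 on the same strand by 237 bases.

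**Figure D3:**
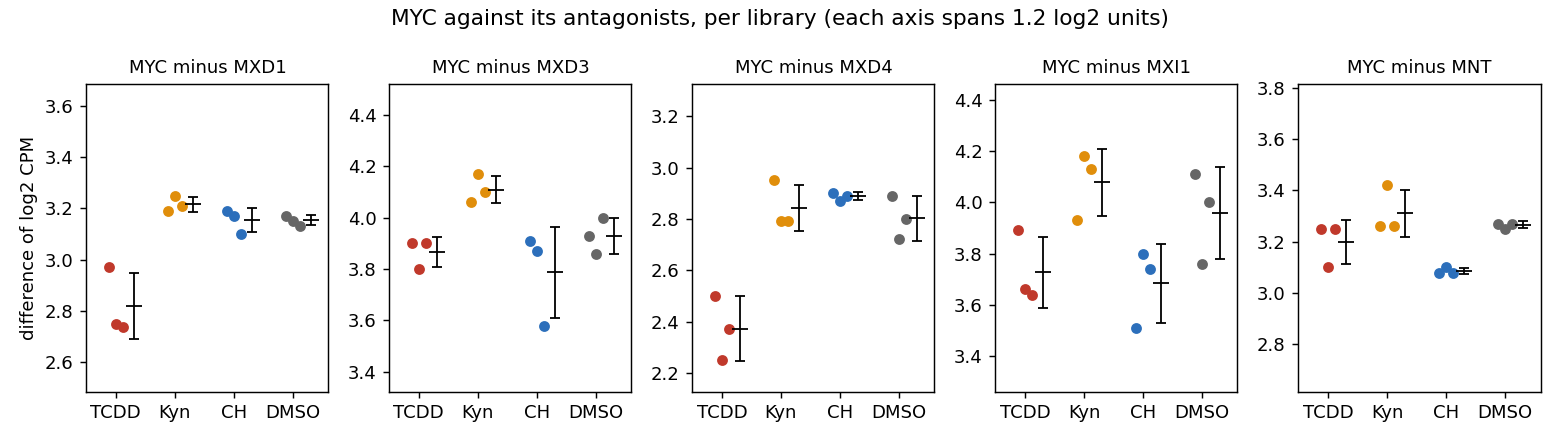
Difference of log2 CPM between MYC and each of 5 antagonists (vertical axes, each 1.2 units high) per library, with the group mean and SD as a bar, for TCDD, Kyn, CH and DMSO. MYC minus MXD4 and MYC minus MXD1 lie lowest with TCDD, and MYC minus MNT lies lowest with CH.

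Set against its antagonists within each library, MYC stood lower in TCDD libraries than in all others relative to MXD4 and MXD1. The log2 CPM of MYC minus that of MXD4 was 2.5, 2.25 and 2.37 with TCDD, 2.95, 2.79 and 2.79 with Kyn, 2.90, 2.87 and 2.89 with CH, and 2.89, 2.72 and 2.80 in DMSO. No TCDD library reached another group. For MXD1 the difference was 2.97, 2.75 and 2.74 with TCDD and 3.17, 3.15 and 3.13 in DMSO, likewise without overlap. For MXD3 and MXI1 the TCDD and DMSO libraries overlapped. For MNT they only met, at 3.25 as rounded, with 3.25, 3.10 and 3.25 with TCDD and 3.27, 3.25 and 3.27 in DMSO.

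With CH, MYC stood lower than in DMSO without overlap relative to MNT alone of the 5. MYC minus MNT was 3.08, 3.10 and 3.08 with CH and 3.27, 3.25 and 3.27 in DMSO. The sum of the 5 antagonists per kb was 26.3 ± 0.9 CPM with TCDD, 26.2 ± 1 with Kyn, 29.4 ± 0.29 with CH and 26.0 ± 0.74 in DMSO. MYC divided by that sum was 1.57, 1.38 and 1.47 with TCDD, 1.81, 1.88 and 1.81 with Kyn, 1.63, 1.65 and 1.5 with CH, and 1.75, 1.62 and 1.74 in DMSO. The TCDD libraries thus lay below all Kyn and DMSO libraries, at a similar sum, and the CH libraries had the highest sums. These ratios are given as a description, with no test, and RNA ratios say nothing of protein. MXD3 makes up the largest part of the sum, with the limit of length and overlap that applies to its level.

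In the MondoA arm, ARRDC4 changed in opposite directions with TCDD and CH. It measured 30.6, 32.1 and 31.1 CPM with TCDD, 26.0, 26.1 and 23.7 with Kyn, 21.0, 21.5 and 22.7 with CH, and 24.9, 25.9 and 26.7 in DMSO. The TCDD libraries lay above all others and the CH libraries below all others, with Kyn and DMSO overlapping. ARRDC4 rose by 20.9% with TCDD (0.27 ± 0.0541, adjusted p = 0.00062) and was 16.2% lower with CH (-0.25 ± 0.0564, adjusted p = 0.000584), both against DMSO. TCDD against CH gave 0.53 ± 0.0559, or 44.2% (adjusted p = 1.61e-09), the largest absolute fold change among the 10 genes in the 6 comparisons.

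TCDD against Kyn gave 0.30 ± 0.0544 for ARRDC4 (adjusted p = 0.000162), and Kyn against CH gave 0.22 ± 0.0567 (adjusted p = 0.00228). Without Kyn replicate 1 these were 0.32 (adjusted p = 0.000219) and 0.20 (adjusted p = 0.013). Kyn against DMSO gave -0.03 ± 0.0549 (adjusted p = 0.963), with a 95% interval of -0.14 to 0.08, and -0.05 without Kyn replicate 1 (adjusted p = 0.918). Each of the 5 calls of ARRDC4 held in 20 of 20 alternatives.

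TXNIP, the thioredoxin-interacting arrestin and the standard readout of MondoA, moved less. It measured 74.3, 75.3 and 78.7 CPM with TCDD, 71.4, 71.0 and 73.1 with Kyn, 71.9, 71.0 and 69.6 with CH, and 68.4, 70.3 and 71.7 in DMSO. The TCDD libraries lay above all others. The rise against DMSO was 8.5% (0.12 ± 0.0398) with an adjusted p of 0.048, and it passed in 6 of 20 alternatives, where the adjusted p ran between 0.0294 and 0.281. It was lost without any 1 of the DMSO or TCDD libraries, Kyn replicates 2 or 3 or CH replicates 1 or 2, while its value stayed between 0.09 and 0.14. Against CH the difference was 0.10 ± 0.0399 (adjusted p = 0.0413) and passed in 10 of 20. Those losses included the fits without TCDD replicates 2 or 3, Kyn replicate 3 or any 1 CH library. With CH against DMSO it was 0.02 ± 0.0398 (95% interval -0.07 to 0.10), and with Kyn against DMSO 0.03 ± 0.0396 (-0.05 to 0.12).

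MLX, the partner of MondoA, was lower with CH. It measured 54.4, 56.7 and 58.4 CPM with TCDD, 58.0, 53.4 and 58.1 with Kyn, 49.7, 46.7 and 48.9 with CH, and 56.6, 53.7 and 54.2 in DMSO. The CH libraries lay below all others. MLX fell by 0.18 ± 0.0459 on the log2 scale, or 11.7%, against DMSO (adjusted p = 0.0025). TCDD against CH gave 0.22 ± 0.0463 (adjusted p = 0.000241) and Kyn against CH gave 0.22 ± 0.0459 (adjusted p = 0.000261, and 0.00152 without Kyn replicate 1). All 3 held in 20 of 20 alternatives. The exons of MLX overlap those of PSMC3IP on the other strand by 775 bases. PSMC3IP was also lower with CH, at 6.39 ± 0.391 CPM against 9.11 ± 0.113 in DMSO (-0.52). Its part in the MLX counts was not tested.

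MondoA itself passed in 0 of the 6 comparisons by edgeR, 0 at an unadjusted p under 0.05 and 0 by DESeq2. MLXIP averaged 94.1 ± 2.12 CPM with TCDD, 98.6 ± 6.42 with Kyn, 97.1 ± 2.49 with CH and 98.3 ± 0.491 in DMSO. The 95% interval of TCDD against DMSO was -0.15 to 0.02 and that of CH against DMSO -0.10 to 0.07. Its paralogue MLXIPL (ChREBP), the glucose sensor of liver, had few reads, with 2.75 ± 0.265 CPM with TCDD, 1.83 ± 0.228 with Kyn, 2.93 ± 0.423 with CH and 2.27 ± 0.369 in DMSO. It passed for Kyn against CH (-0.68 ± 0.17, adjusted p = 0.00204), without any 1 library and by DESeq2 too. TCDD against Kyn also passed (0.59 ± 0.174, adjusted p = 0.0266), but not without TCDD replicate 2, TCDD replicate 3 or Kyn replicate 1, where the adjusted p reached 0.153, nor by DESeq2.

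Counted over the 10 genes, TCDD against DMSO gave 3 that rose (MXD4, TXNIP, ARRDC4) and 1 that fell (MYC). Over all genes tested, 11.7% were called, 5.91% higher and 5.83% lower. The median log2 fold change was 0.08 over the 10 and 0.00084 over all genes, and the median size of change was 0.13 and 0.08. Leaving out 1 library left 3 or 4 of the 10 called.

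Kyn against DMSO gave 0 calls among the 10, with 0.294% of all genes called, 0.154% higher and 0.14% lower. At an unadjusted p under 0.05 there was 1 (MYC), and DESeq2 called 0. The median size of change was 0.05 over the 10 and 0.05 over all genes.

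CH against DMSO gave 3 that rose (MXD3, MXI1, MNT) and 2 that fell (MLX, ARRDC4). With 32.8% of all genes called, 15.9% higher and 16.9% lower, a count of 5 in 10 is not read as particular to the network. The median size of change was 0.13 over the 10 and 0.12 over all genes.

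TCDD against Kyn gave 1 higher (ARRDC4) and 2 lower (MYC, MNT), with 9.19% of all genes called, 5.1% higher and 4.09% lower. MNT was at the threshold (-0.20 ± 0.0673, adjusted p = 0.0496) and passed in 5 of 20 alternatives. Its call ended without DMSO replicates 2 or 3, TCDD replicates 1 or 3, Kyn replicates 1 or 3, or any 1 CH library, and the value without Kyn replicate 1 was -0.15 (adjusted p = 0.307).

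TCDD against CH, the dioxin against the antagonist, gave 9 of 10: MAX, MXD4, MLX, TXNIP and ARRDC4 were higher, and MYC, MXD3, MXI1 and MNT lower. Of all genes 37.1% were called, 19% higher and 18.1% lower. The median size of change was 0.26 over the 10 and 0.14 over all genes. Without CH replicate 1 there were 7.

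Kyn against CH gave 2 higher (MLX, ARRDC4) and 3 lower (MXD3, MXI1, MNT), with 33% of all genes called, 16.6% higher and 16.4% lower. MXD3 gave -0.28 ± 0.0812 (adjusted p = 0.00709, and 0.0612 without CH replicate 3) and MNT -0.19 ± 0.064 (adjusted p = 0.0225). Without Kyn replicate 1 these were -0.33 (adjusted p = 0.00548) and -0.24 (adjusted p = 0.01). The MNT call ended without Kyn replicate 2, Kyn replicate 3, CH replicate 1 or CH replicate 2, with adjusted p of 0.0547 to 0.154. The comparisons share groups and are not independent of each other.

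Around the network, TCDD raised 2 of 9 other network genes and lowered 0 against DMSO, where 5.91% of all genes were higher and 5.83% lower. MGA, a MAX partner that silences germline genes, rose by 0.31 ± 0.0564 (62.5 ± 4.14 CPM with TCDD and 50.3 ± 3.24 in DMSO, adjusted p = 0.000187). MYCBP2, a large ubiquitin ligase that binds MYC, rose by 0.25 ± 0.0539 (adjusted p = 0.00166). With CH also 2 of 9 rose and 0 fell, beside 15.9% and 16.9% of all genes, so the rises are not read as particular to the list. They were SIN3A, the corepressor scaffold of the MXD proteins (0.30 ± 0.0435, adjusted p = 1.2e-06), and MYCL, a MYC paralogue (0.49 ± 0.0733, adjusted p = 2.03e-06). These 4 calls held without any 1 library. With Kyn 0 of 9 passed by edgeR, 0 at an unadjusted p under 0.05 and 0 by DESeq2.

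Of 30 genes that MYC is known to activate, mostly of ribosome production, TCDD lowered 4 and raised 1 against DMSO, where 5.83% of all genes were lower and 5.91% higher. BOP1, a processing factor of the large ribosomal subunit, fell by 0.22 ± 0.0385 on the log2 scale (106 ± 2.2 CPM with TCDD and 123 ± 6.7 in DMSO, adjusted p = 0.000142). SRM, spermidine synthase, fell by 0.16 ± 0.0348 (adjusted p = 0.00152). These 2 calls held without any 1 library, and those of RRS1 (-0.17), CDC25A (-0.12) and TERT (0.70) did not. TERT lay at 2.77 ± 0.26 CPM with TCDD and 1.70 ± 0.1 in DMSO. The calls ended without DMSO replicates 1 or 3 or TCDD replicate 3 for RRS1, without DMSO replicate 1 or TCDD replicate 3 for TERT, and without DMSO replicates 1 or 3 or TCDD replicates 1 or 2 for CDC25A. The median of the list was -0.04 and that of all genes 0.00084.

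CH lowered 14 of the 30 and raised 1 against DMSO, where 16.9% of all genes were lower and 15.9% higher. MYC itself was not called in that comparison. CDC25A, a cell cycle phosphatase, fell by 0.56 ± 0.0381 (64.5 ± 1.3 CPM with CH and 95.2 ± 1.4 in DMSO, adjusted p = 3.19e-14). MRTO4, a ribosome assembly factor, fell by 0.31 ± 0.0387 (adjusted p = 1.13e-07), TFRC, the transferrin receptor, by 0.27 ± 0.0367 (adjusted p = 3.78e-07), and the nucleolar GTPase GNL3 by 0.25 ± 0.0348 (adjusted p = 5.83e-07). Of the 15 calls 13 held without any 1 library, and 2 ended without DMSO replicate 1. The median of the list was -0.09 and that of all genes 0.00097. With Kyn 0 of 30 passed by edgeR, against 3 at an unadjusted p under 0.05 and 0 by DESeq2.

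Of 13 genes that MYC is known to repress, TCDD raised 2 and lowered 1 against DMSO, where 5.91% of all genes were higher and 5.83% lower. CCNG2, a cyclin of non-dividing cells, rose by 0.74 ± 0.069 (22.6 ± 1.6 CPM with TCDD and 13.5 ± 0.99 in DMSO, adjusted p = 4.68e-10). CDKN1B, the kinase inhibitor p27, rose by 0.26 ± 0.0352 (119 ± 0.56 CPM with TCDD and 99.0 ± 0.46 in DMSO, adjusted p = 1.83e-06), and THBS1, the matrix protein thrombospondin, fell by 0.23 ± 0.0416 (adjusted p = 0.000187). All 3 held without any 1 library. CH raised 4 and lowered 3, beside 15.9% of all genes higher and 16.9% lower. Among them were CCNG2 (0.50 ± 0.0699, adjusted p = 6.43e-07), NDRG1, a stress-induced gene (0.56 ± 0.0782, adjusted p = 6.21e-07), CDKN1C, the kinase inhibitor p57 (0.58 ± 0.0894, adjusted p = 4.17e-06), and THBS1 (-0.72 ± 0.0423, adjusted p = 3.98e-16). Of those 7 calls 5 held without any 1 library, and 2 ended without DMSO replicate 1 or CH replicate 1. Kyn lowered 1 and raised 0. That gene was THBS1 (-0.18 ± 0.0414, adjusted p = 0.0383), whose call ended in 7 of 12 fits without 1 library, at up to 0.408. Those were the fits without DMSO replicates 1 or 3, TCDD replicates 1 or 2, Kyn replicates 1 or 3, or CH replicate 2.

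**Figure D4:**
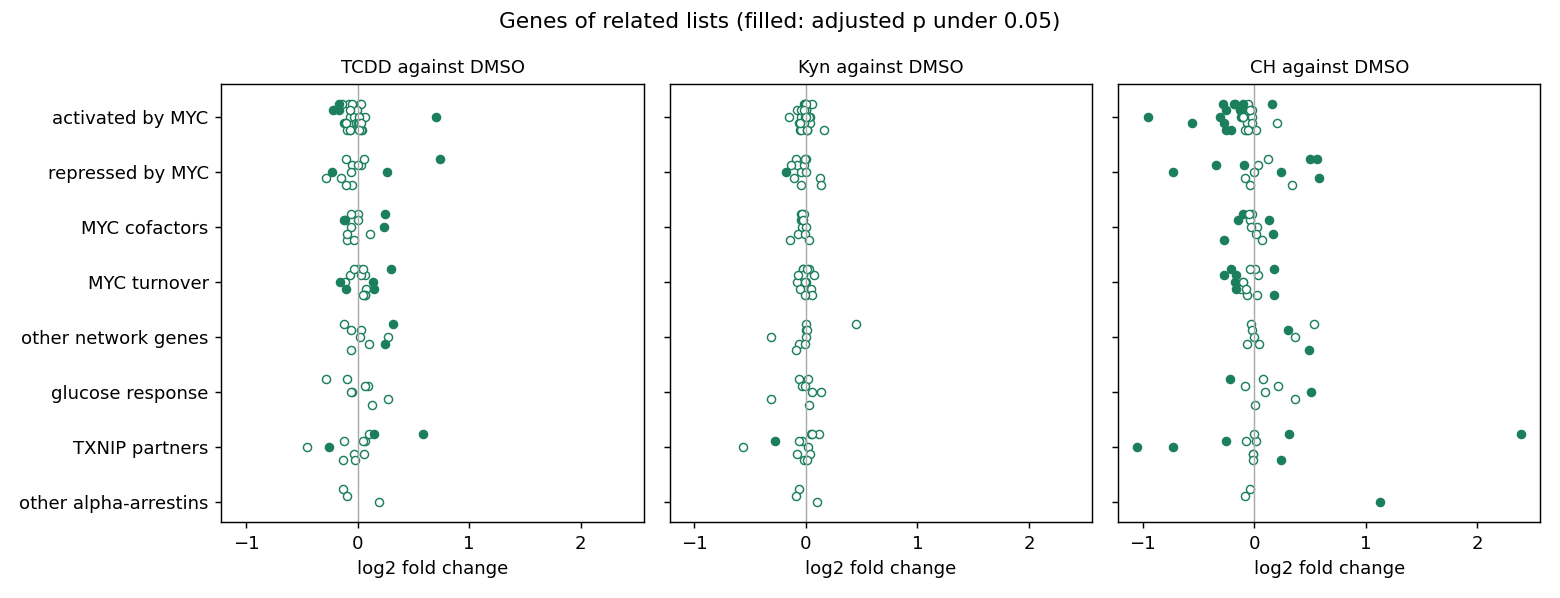
Log2 fold changes (horizontal axes) against DMSO of the genes of 8 related lists, a circle per gene, filled where the adjusted p was under 0.05, for TCDD, Kyn and CH. With CH most filled circles of the genes activated by MYC lie left of 0 (14 of 15), and the circle farthest right is DDIT4 (2.39).

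Among 12 coactivators of MYC, TCDD raised 2 and lowered 1 against DMSO, where 11.7% of all genes were called. The acetyltransferase EP300 gave 0.24 ± 0.0453 (adjusted p = 0.000346), and TRRAP, the scaffold that MYC binds, 0.25 ± 0.055 (adjusted p = 0.00217). WDR5 (-0.13) lost its call without DMSO replicate 1, TCDD replicate 2 or TCDD replicate 3. CH raised 2 and lowered 3, a count not read as particular to the list with 32.8% of all genes called. Held without any 1 library were 2 of these calls: HCFC1, a cofactor that binds MYC (-0.27 ± 0.0442, adjusted p = 8.16e-06), and WDR5 (-0.15 ± 0.0352, adjusted p = 0.00139). The other 3 each ended without DMSO replicate 1 or CH replicate 2. By DESeq2 TRRAP was not called.

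Among 16 genes of MYC protein turnover, TCDD raised 3 and lowered 2, beside 11.7% of all genes called. The call of HUWE1, a ubiquitin ligase of MYC, held without any 1 library (0.30 ± 0.0518, 443 ± 27 CPM with TCDD and 360 ± 8.6 in DMSO, adjusted p = 0.000103). The other 4 calls each ended without DMSO replicate 1, DMSO replicate 3 or TCDD replicate 3. CH raised 2 and lowered 5, a count likewise not read as particular with 32.8% of all genes called, and 4 calls held. They were KIAA1524 (CIP2A), which protects MYC from dephosphorylation (-0.27 ± 0.0421, adjusted p = 4.66e-06), the kinases AURKA (-0.20 ± 0.0354, adjusted p = 2.41e-05) and PLK1 (-0.17 ± 0.0341, adjusted p = 0.000251), and the ligase subunit SKP2 (-0.16 ± 0.0365, adjusted p = 0.000742). The other 3 ended without DMSO replicate 1 or, for HUWE1, CH replicate 2. Kyn gave 0 calls in both lists by edgeR, 1 cofactor and 0 turnover genes at an unadjusted p under 0.05, and 0 by DESeq2.

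Of 8 glucose-response genes, TCDD against DMSO called 0 by edgeR (2 at an unadjusted p under 0.05, 0 by DESeq2), Kyn 0 (0 and 0), and CH 1 higher and 1 lower (6 and 2). The shares over all genes called by edgeR were 11.7% with TCDD, 0.294% with Kyn and 32.8% with CH. With CH, RGS16, a regulator of G protein signalling, rose by 0.51 ± 0.0991 (adjusted p = 0.000124), and PFKFB3, an activator of glycolysis, fell by 0.22 ± 0.048 (adjusted p = 0.000559). Of 3 other alpha-arrestins, ARRDC3, which limits receptor signalling, rose with CH by 1.12 ± 0.098 (12.1 ± 0.42 CPM with CH and 5.58 ± 0.41 in DMSO, adjusted p = 2.25e-11). The same comparison lowered ARRDC4. TCDD and Kyn each called 0 of the 3 by edgeR and 0 by DESeq2, with 1 and 0 at an unadjusted p under 0.05.

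Of 12 partners of TXNIP in redox and glucose handling, TCDD raised 2 and lowered 1, Kyn lowered 1, and CH raised 3 and lowered 3. Of all genes 11.7% were called with TCDD, 0.294% with Kyn and 32.8% with CH. Of the 6 calls with CH 5 held without any 1 library, and 1 ended without DMSO replicate 2, DMSO replicate 3 or CH replicate 2 and was not called by DESeq2. SLC2A1, the glucose transporter GLUT1 whose surface level TXNIP lowers, was the gene called with Kyn. It measured 728, 719 and 686 CPM with TCDD, 545, 571 and 580 with Kyn, 604, 580 and 542 with CH, and 720, 665 and 674 in DMSO. The Kyn and CH libraries lay below all TCDD and DMSO libraries. Kyn gave -0.28 ± 0.0373 (adjusted p = 1.43e-05) and CH -0.25 ± 0.0373 (adjusted p = 1.73e-06), both held without any 1 library, while TXNIP passed with neither.

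DDIT4, an inhibitor of mTORC1 and a stress gene, rose by 0.58 ± 0.045 with TCDD (77.3 ± 2.9 CPM against 51.5 ± 1.2 in DMSO, adjusted p = 4.73e-12) and by 2.39 ± 0.0421 with CH (270 ± 11 CPM, adjusted p = 6.94e-32). TXNRD1, thioredoxin reductase, rose by 0.15 ± 0.0309 with TCDD (adjusted p = 0.00101). SLC2A3, the glucose transporter GLUT3, fell by 0.73 ± 0.0784 with CH (adjusted p = 3.74e-09) and by 0.26 ± 0.0754 with TCDD (adjusted p = 0.0203), the last lost without DMSO replicate 1 or TCDD replicate 2.

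The genes whose 4 group means were most like those of 3 members were found among 12112 genes (mean CPM of 1 or more), by the root mean square difference of centred log2 CPM. For MYC they were ELFN1-AS1 (0.023), ADRB1 (0.023) and WNT5B (0.025), where the means of MYC themselves spread by 0.12. For TXNIP they were TAF9B (0.0026), KIAA1468 (0.0051) and PFKFB2 (0.0052), with a spread of 0.045. For ARRDC4 they were DMRT2 (0.019), LY6G5B (0.021) and DNHD1 (0.022), with a spread of 0.19. With 4 groups and so many genes, such likeness describes these means only.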

How the data were processed

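Poly(A) RNA of 12 DLD1 libraries was sequenced. Per the submitters' processing notes, reads were trimmed with Trim Galore, aligned to hg38 with STAR 2.7.2b, sorted with SAMtools 1.9 and counted with HTSeq. The extract protocol in the labels names another STAR version and does not mention CH. The deposited numbers are whole, unnormalized read counts for gene symbols, and the strand setting is not given in the sources used here. HTSeq summary rows were left out of library sizes. Of these, reads in no gene made up 6.59 to 8.48% and reads aligned to more than 1 place 2.63 to 3.91%.

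The software was edgeR 4.0.16 under R 4.3.3. Its function filterByExpr (minimum count 10) kept 13619 of 26485 symbols, TMM factors were 0.988 to 1.02, and a quasi-likelihood fit to all 12 libraries had a coefficient for each group, with Benjamini-Hochberg adjustment within each comparison over all genes tested. SE is the log2 fold change divided by the square root of F. CPM were taken over TMM-scaled totals, logarithms of CPM added a prior count of 2, and values per kb the GENCODE 44 canonical transcript (hg38). Differences in count between pairs of libraries of a group were 1.74 to 4.55 times Poisson noise, so none was counted as a duplicate. The procedure was tested on simulated data.

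The members and gene lists were chosen with earlier results of these data known. Genes named are the 10 members, up to 4 called genes of smallest p per list and comparison, the 3 genes most like MYC, TXNIP and ARRDC4, and CYP1A1. MLXIP, DCN, KDR and the genes that overlap members were named besides. So were CDC25A with TCDD, TIPARP with Kyn and HUWE1 with CH, each outside the 4 of smallest p in its list. Of the coactivators, 1 gene is not reported here. The 20 alternatives were RLE scaling, library totals alone, no filter, at least 5 CPM in 3 libraries, DESeq2 1.42.0, a replicate block, only the 2 groups compared, each of 12 libraries left out, and, added after the data were seen, removal of GC and length trends (gene models for 12529 tested genes).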

Additional observations from a re-analysis of the deposited data

How the results depend on the processing

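Of 1200 recomputed differences of the 10 genes (60 differences under 20 alternatives), 1104 kept their direction and their side of the threshold, 52 lost a call, 7 gained one, 37 uncalled ones changed sign and 0 called ones reversed. The count of all genes called with TCDD against DMSO (1599) was 1024 with GC and length trends removed, and only 739 genes were called in both. With 1 library left out it was 805 to 1912 (851 without DMSO replicate 1, 1020 without DMSO replicate 3, 805 without TCDD replicate 3). With Kyn against DMSO it was 40, against 65 with no filter on low counts, 26 with only the 2 groups compared and 67 with GC and length trends removed. TCDD against Kyn (1252) gave 894 with GC and length trends removed, with 621 genes called in both. It gave 576 to 1323 with 1 library left out (576 without TCDD replicate 3, 658 without Kyn replicate 1). Among the 10 genes, Kyn against CH gave 3 to 5 calls with 1 library left out, 3 without CH replicate 1. The removal of GC and length trends tested 12529 genes in place of 13619, and a fit without a library rests on fewer samples. The part of each in these counts was not tested.

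Deviations of same-numbered libraries correlated at -0.0554 to 0.0371 (18 pairs), others at -0.0528 to 0.0832 (36 pairs). This check weighs all tested genes equally and so cannot exclude shared handling. Counts of Kyn replicate 1 varied 3.89 times as much as Poisson noise with DMSO replicate 1. With DMSO replicates 2 and 3 it was 6.10 and 4.33 times. DMSO replicate 1 gave 4.26 and 3.98 times with Kyn replicates 2 and 3. Whether same-numbered libraries shared handling was not tested. With a replicate block 3 of the 10 were called with TCDD against DMSO in place of 4 (TXNIP 0.12, adjusted p = 0.0582), 2 in place of 3 with TCDD against Kyn (MNT, adjusted p = 0.0528), 8 in place of 9 with TCDD against CH (TXNIP, adjusted p = 0.051), and 0, 5 and 5 in the other comparisons. Under RLE scaling or library totals the median of all genes lay between -0.029 and 0.026. MXI1 and MXD3, with 230 to 433 reads per library, had the widest intervals of the 10 (SE of up to 0.0987), and the parts of depth and of spread between libraries in this were not separated.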
